A study of Mus musculus with 4 samples.

Results

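A set of 10 genes of immature, process-forming neurons was followed across 4 libraries of cells from the mouse hippocampus. They were chosen by symbol as Dcx, Tubb3, Stmn1, Stmn2, Gap43, Dpysl3, Ncam1, Elavl3, Elavl4 and Nrep, and all 10 were found among the 23334 usable genes of the deposited tables. The cells came from C57BL/6 mice carrying the Vegfr3::YFP reporter, in which a yellow fluorescent protein reports use of Vegfr3, a receptor for the growth factor VEGF-C. The 4 groups were YFP-positive cells with VEGF-C at 50 ng/ml, YFP-positive cells without it, YFP-negative cells with VEGF-C at 50 ng/ml and YFP-negative cells without it, all kept in culture for 18 h. Per the labels, the positive cells were neural stem cells and the negative cells neurons, both of the subgranular zone, where the dentate gyrus makes new neurons, and no age was given. Cells of 2 groups of 16 mice were pooled in each condition, which left 1 library per group. Cells cultured with VEGF-C are called treated below and cells without it untreated. Every difference below is therefore between single libraries, with no replicate check and no test.

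New granule neurons are born in the dentate gyrus throughout life, and they pass through a stage in which they migrate and extend an axon and dendrites. Neurite growth needs a supply of tubulin, proteins that build or take apart microtubules, membrane proteins of the growth cone, adhesion molecules that guide it and RNA-binding proteins that keep neuronal messenger RNAs stable. Dcx and Tubb3 are widely used markers of young neurons, whereas Stmn1 is also used by dividing cells and Ncam1 by many neural cell types.

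Upstream sequence is shown for 3 members whose levels followed 3 different courses across the libraries: Dcx, which did not separate the populations, Tubb3, which was higher in both YFP-positive libraries, and Elavl3, which was lower in both on the deposited scale. The stretches are from RefSeq on GRCm38.p6, the same assembly as mm10, and end before both the RefSeq and the GENCODE M21 start of the gene. They are chrX:143933312-143933469 on the minus strand for Dcx, chr8:123411303-123411423 on the plus strand for Tubb3 and chr9:22052024-22052273 on the minus strand for Elavl3. Capitals mark the motifs searched on both strands. The first was CAGATG, an E-box of the kind that neuronal basic helix-loop-helix factors bind. The second was CAGCTG, another E-box. The third was TATAAA, the core of the TATA box.
Dcx: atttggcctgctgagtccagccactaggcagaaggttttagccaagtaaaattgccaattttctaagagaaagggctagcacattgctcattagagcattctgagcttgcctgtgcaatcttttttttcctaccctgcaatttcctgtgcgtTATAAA
Tubb3: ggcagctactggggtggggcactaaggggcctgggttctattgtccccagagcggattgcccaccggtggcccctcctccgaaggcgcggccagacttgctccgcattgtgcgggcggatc
Elavl3: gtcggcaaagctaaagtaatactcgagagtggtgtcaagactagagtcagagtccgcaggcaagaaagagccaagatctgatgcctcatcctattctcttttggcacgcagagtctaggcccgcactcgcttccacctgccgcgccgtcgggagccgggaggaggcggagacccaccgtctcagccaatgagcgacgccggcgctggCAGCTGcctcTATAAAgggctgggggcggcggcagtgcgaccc

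The Dcx stretch was AT-rich, with 42.4% G and C, against 67.8% for Tubb3 and 61.6% for Elavl3. Within 250 bases before a RefSeq start, Elavl3 held both CAGCTG and TATAAA, which do not overlap, Dcx held TATAAA, and Tubb3 held none of the motifs. Among 32536 such windows of all genes, 14.4% held CAGATG, 13.1% CAGCTG and 12.3% TATAAA. The table had upstream sequence for 4 of the 10 members, the fourth being Elavl4, which has several RefSeq starts. The Elavl4 window nearest to the GENCODE start held none of the motifs. The windows of its other starts, some of which overlap, all held the first motif, the neuronal E-box, on either strand. Some of them also held the second E-box. These matches describe letters in a window and say nothing about whether a factor was bound.

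Depth and the number of genes listed above 0 varied among the libraries. Nearly all normalized counts were whole multiples of a step fixed in each library, and dividing by it gave fragment numbers, called implied fragments here. Their totals ran from 8390507 to 60326302, a 7.19-fold range. The YFP-positive library with VEGF-C listed 13528 genes above 0 and the YFP-negative library without it 13132, and these are called gene-rich below. The YFP-positive library without VEGF-C listed 9669 and the YFP-negative library with it 9556, and these are called gene-poor. Each pair that differs only in population or only in VEGF-C thus sets a gene-rich library against a gene-poor one. The pairs of equal richness differ in both at once.

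Levels are given as FPKM, fragments per kilobase of transcript, with the scaling between libraries that the deposited normalized counts carry. They are not shares of each library's total of implied fragments. Relative to such shares, this scaling places the gene-poor libraries higher. Among the 10 members, the microtubule genes Tubb3 and Stmn2 had the widest ranges, with very few implied fragments in treated YFP-negative cells. The microtubule genes Dcx and Stmn1 had the narrowest. Dcx (chromosome X, 143855842 to 143933311, ENSMUSG00000031285.14), whose protein doublecortin binds and steadies microtubules, measured 8.43 FPKM in treated and 28.9 FPKM in untreated YFP-positive cells, against 20.9 FPKM in treated and 11.7 FPKM in untreated YFP-negative cells. The 2 populations overlapped, since the highest and the lowest value were both from YFP-positive cells. Dcx rested on 1396 to 5621 implied fragments per library, so the counting error of fragments was small in each.

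Tubb3 (chromosome 8, 123411424 to 123422015, ENSMUSG00000062380.4) encodes the beta-tubulin of neurons. It measured 242 FPKM in treated and 166 FPKM in untreated YFP-positive cells, against 0.168 FPKM in treated and 24.2 FPKM in untreated YFP-negative cells. The populations did not overlap. The lowest value rested on 2 implied fragments and the exact 95% Poisson interval, which covers counting error only here and below, was 0.0204 to 0.608 FPKM. Tubulin genes share coding sequence, so reads may have been divided among them in a way that the tables do not show.

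Stathmins bind tubulin and favour the disassembly of microtubules. Stmn1 (chromosome 4, 134468320 to 134473843) measured 355 FPKM in treated and 178 FPKM in untreated YFP-positive cells, against 382 FPKM in treated and 307 FPKM in untreated YFP-negative cells. It was the most abundant member in 3 of the 4 libraries and the populations overlapped. In the same order of libraries it stood above 97.7%, 89.8%, 95.2% and 97.5% of the genes at 1 FPKM or more. Stmn2 (chromosome 3, 8509360 to 8561606), the membrane-bound stathmin of growing axons, measured 62.7 FPKM in treated and 113 FPKM in untreated YFP-positive cells, against 0.0755 FPKM in treated and 38.2 FPKM in untreated YFP-negative cells. Both YFP-positive values were above both YFP-negative ones, and the lowest rested on 1 implied fragment, with an interval of 0.00191 to 0.421 FPKM.

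Gap43, Dpysl3 and Nrep were each higher in both YFP-positive libraries than in both YFP-negative ones. Gap43 (chromosome 16, 42248442 to 42340651), a membrane protein of the growth cone that acts on the actin cytoskeleton, measured 99.8 FPKM in treated and 252 FPKM in untreated YFP-positive cells, against 68.7 FPKM in treated and 22.2 FPKM in untreated YFP-negative cells. Dpysl3, a collapsin response mediator that carries guidance signals to the cytoskeleton, measured 75.4 FPKM in treated and 179.5 FPKM in untreated YFP-positive cells, against 1.08 FPKM in treated and 46.0 FPKM in untreated YFP-negative cells. Nrep, a small protein linked to nerve regeneration, measured 26.3 FPKM in treated and 52.1 FPKM in untreated YFP-positive cells, against 0.816 FPKM in treated and 20.1 FPKM in untreated YFP-negative cells. In treated YFP-negative cells, Dpysl3 and Nrep rested on 15 and 12 implied fragments, whereas Gap43 had 596 in that library. Dpysl3, Nrep and Gap43 had their highest value in YFP-positive cells without VEGF-C.

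Ncam1 (chromosome 9, 49502136 to 49798925), a cell adhesion molecule that carries polysialic acid on young neurons, measured 130.3 FPKM in treated and 220.4 FPKM in untreated YFP-positive cells, against 46.9 FPKM in treated and 58.5 FPKM in untreated YFP-negative cells. The populations did not overlap. Exons of the antisense gene Gm11149 overlap those of Ncam1, and unstranded reads do not separate such genes. Gm11149 itself measured 2.15 and 6.34 FPKM in treated and untreated YFP-positive cells, and was listed at 0 in treated and at 2.87 FPKM in untreated YFP-negative cells.

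The RNA-binding genes Elavl3 and Elavl4, whose proteins bind AU-rich messages and steady them, went different ways. Elavl3 (chromosome 9, 22015005 to 22052023) measured 24.7 FPKM in treated and 4.33 FPKM in untreated YFP-positive cells, against 31.1 FPKM in treated and 27.3 FPKM in untreated YFP-negative cells. It was the only member with both YFP-positive values below both YFP-negative ones, and that order did not hold with upper-quartile scaling. Elavl4 (chromosome 4, 110203722 to 110351909) measured 32.7 FPKM in treated and 2.59 FPKM in untreated YFP-positive cells, against 0.406 FPKM in treated and 2.07 FPKM in untreated YFP-negative cells. The treated YFP-positive library stood far above the other 3. The values of 2.59 and 2.07 FPKM gave a ratio of 1.25, with an exact 95% interval for counting error of 0.932 to 1.66.

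**Figure D1:**
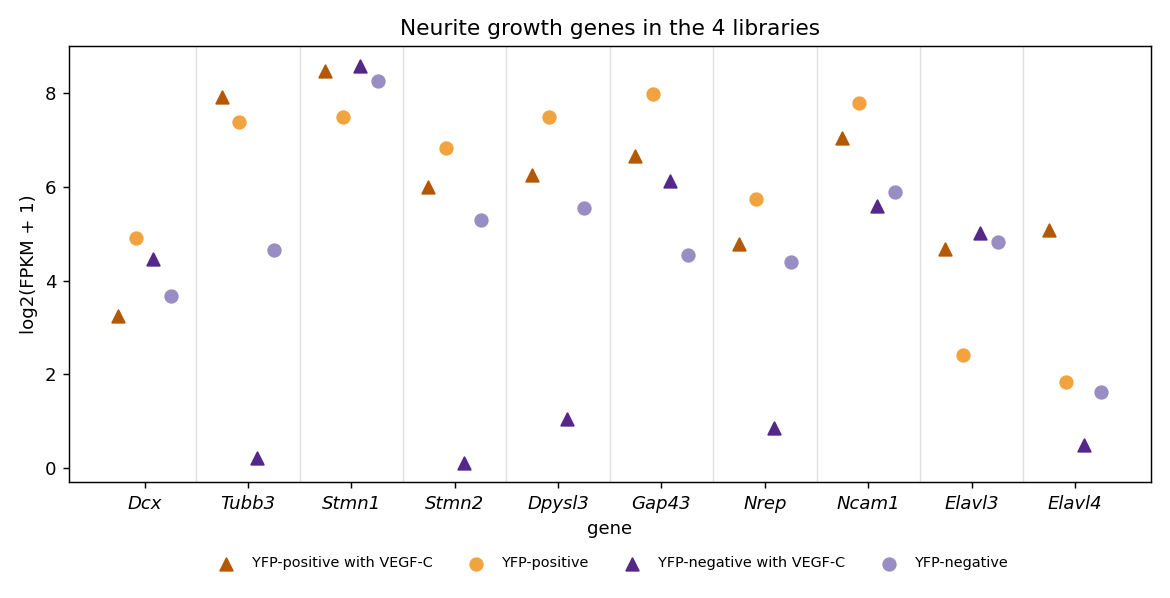
Level of each gene as log2(FPKM + 1) in the 4 libraries, with triangles for cells with VEGF-C, circles for cells without it, orange for YFP-positive and purple for YFP-negative cells. Tubb3, Stmn2, Dpysl3, Nrep and Elavl4 lie near 0 to 1 in YFP-negative cells with VEGF-C, while Stmn1 lies above 7 in every library.

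Which of these genes set the reporter-bearing cells apart was asked first. Of the 10 members, 7 had both YFP-positive libraries above both YFP-negative ones (Tubb3, Stmn2, Gap43, Dpysl3, Ncam1, Elavl4 and Nrep), against 18.7% of 12769 genes with at least 1 FPKM in some library. Elavl3 was below in both, against 17.1% of those genes, and Dcx and Stmn1 overlapped. In the 3939 genes that averaged 20 FPKM or more the shares were 24.0% above and 21.3% below. With the libraries scaled to their upper quartile, or to their total of implied fragments (fragment share), 6 members were above (Elavl4 no longer) and 0 below (Elavl3 no longer). Here and below, shares of all genes are given on the deposited scale only, so rescaled counts have no such share beside them. The summed level of the 10 genes was 1058 FPKM in treated and 1197 FPKM in untreated YFP-positive cells, against 552 FPKM in treated and 557 FPKM in untreated YFP-negative cells. Stmn1 alone gave 355 and 178 FPKM of the sums in treated and untreated YFP-positive cells, and 382 and 307 FPKM in YFP-negative cells.

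Differences are given below as log2 of (FPKM + 1) in the first library over (FPKM + 1) in the second, a scale that understates the change of low genes, and a gene counts as higher or lower from 2-fold on that scale. With VEGF-C, 6 of 10 members were higher in YFP-positive cells than in the negative ones, where 47.0% of 11229 genes tested were, and 1, Dcx, was lower, where 27.6% were. The median of the members was 2.68 and that of all genes tested 0.69. Tubb3 had a difference of 7.70, Stmn2 of 5.89, Dpysl3 of 5.20, Elavl4 of 4.58 and Nrep of 3.91, and these 5 were past 2-fold under every scaling, pseudocount and filter tried. The FPKM ratio of Dpysl3 was 69.7 (exact 95% interval for counting error 42.3 to 125), and that of Nrep was 32.2 (18.4 to 62.5). Tubb3 and Stmn2, with 2 and 1 fragments in the YFP-negative library, had ratios with intervals of 398 to 11870 and 149 to 32785. Ncam1 had a difference of 1.46, which was 0.76 relative to the median of all genes. Gap43 at 0.53, Stmn1 at -0.10 and Elavl3 at -0.32 were within 2-fold, and Dcx at -1.21 passed 2-fold on the deposited scale but was at -0.01 with upper-quartile scaling.

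Without VEGF-C, 7 of 10 members were higher in YFP-positive cells, where 30.1% of 11265 genes were, and 1, Elavl3, was lower, where 46.7% were. The median of the members was 1.43 and that of all genes -0.66. Gap43 had the largest difference, 3.44, with an FPKM ratio of 11.3 (10.3 to 12.5), followed by Tubb3 at 2.73 with a ratio of 6.85 (6.30 to 7.46). Dpysl3 was at 1.94, Ncam1 at 1.90, Stmn2 at 1.54, Nrep at 1.33 and Dcx at 1.24. Elavl4 was at 0.22 and Stmn1 at -0.78, within 2-fold, and Elavl3 was at -2.41. With upper-quartile scaling the split was 2 higher (Tubb3 and Gap43) and 2 lower (Elavl3 and Stmn1), and with fragment share 4 higher and 2 lower. Tubb3, Gap43 and Elavl3 were past 2-fold in their direction under every setting tried.

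The pairs of equal richness differ in VEGF-C as well as in population, so neither isolates the reporter. Between the gene-rich libraries, YFP-positive with VEGF-C and YFP-negative without it, 4 of 10 members were higher (Tubb3 at 3.27, Elavl4 at 3.46, Gap43 at 2.12 and Ncam1 at 1.14), where 26.8% of 12194 genes were, and 0 were lower, where 25.8% were. The remaining 6, from Stmn2 and Dpysl3 at 0.70 each to Dcx at -0.42, were within 2-fold. Between the gene-poor libraries, YFP-positive without VEGF-C and YFP-negative with it, 7 were higher, where 39.7% of 9164 genes were, and Stmn1 at -1.09 and Elavl3 at -2.59 were lower, where 37.6% were. The medians of all genes in these pairs were 0.05 and 0.08, and the members' medians 0.70 and 2.03. Tubb3 was thus past 2-fold in all 4 pairs of a YFP-positive with a YFP-negative library, which share libraries among them, as was Ncam1 on the deposited scale.

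**Figure D2:**
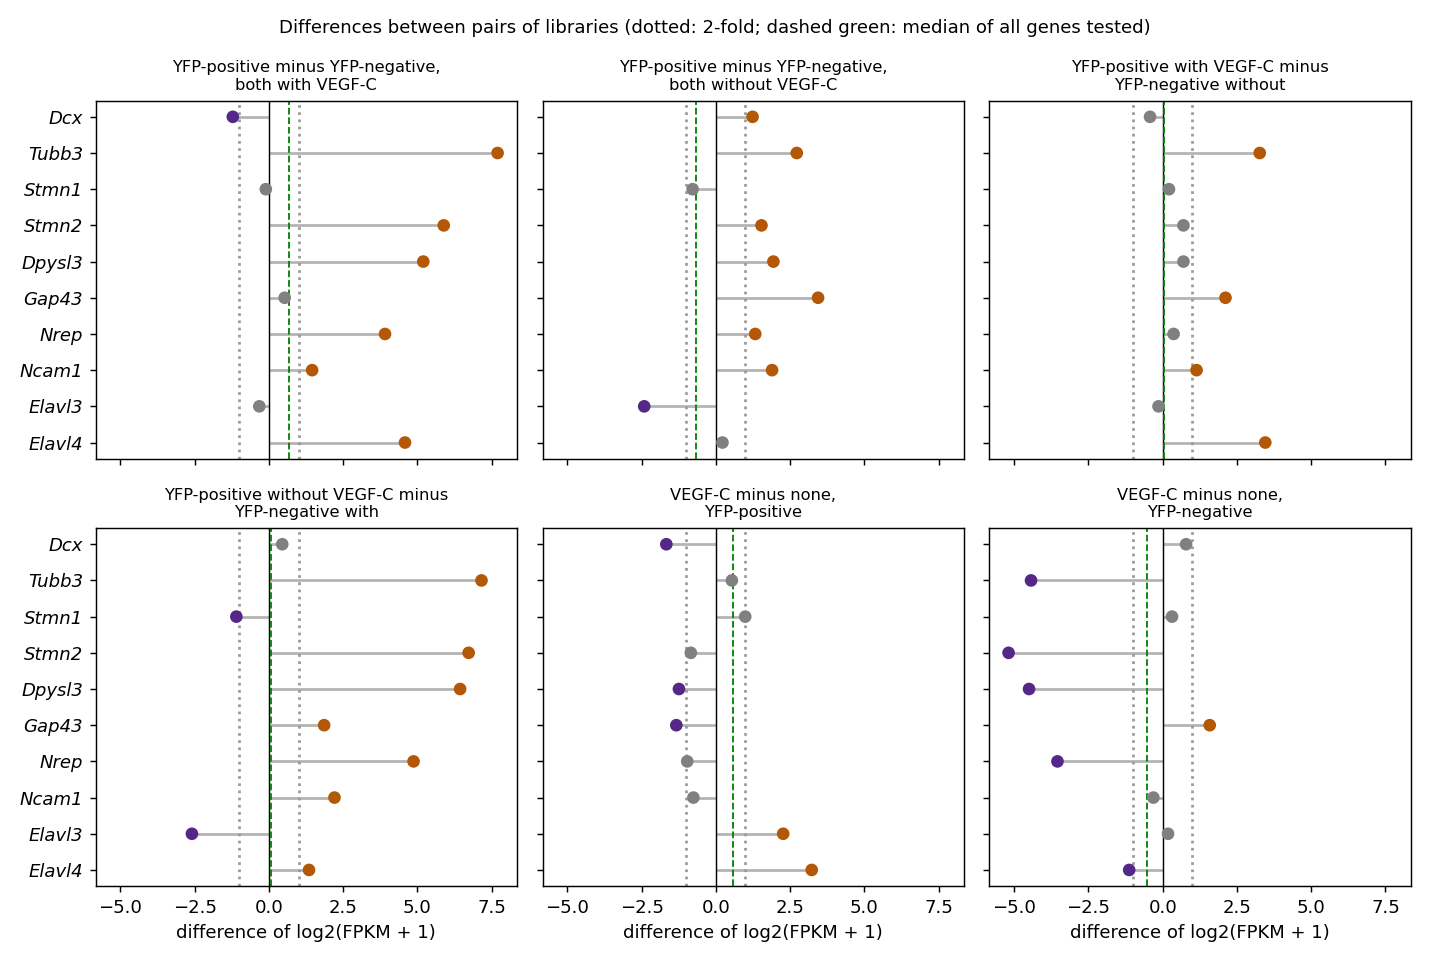
Difference of log2(FPKM + 1) for each gene in 6 pairs of libraries, with orange points at least 2-fold higher, purple points at least 2-fold lower and grey points between. Tubb3 is orange in all 4 pairs of populations, and the dashed line for the median of all genes lies at 0.69 and -0.66 in the pairs with and without VEGF-C.

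VEGF-C against none was compared within each population. In YFP-positive cells 2 of 10 members were higher with VEGF-C, Elavl4 at 3.23 and Elavl3 at 2.27, where 45.5% of 11040 genes were. Another 3 were lower, Dcx at -1.66, Gap43 at -1.33 and Dpysl3 at -1.24, where 26.3% of genes were. Nrep at -0.96, Stmn2 at -0.84, Ncam1 at -0.75, Tubb3 at 0.54 and Stmn1 at 0.99 were within 2-fold. The median of the members was -0.80 and that of all genes 0.59. With upper-quartile scaling the split became 4 higher and 0 lower, with fragment share 4 and 1, and relative to the median of all genes 2 and 6, so the lower calls depend on the scaling. Elavl3 and Elavl4 were higher under every setting, with FPKM ratios of 5.70 (4.85 to 6.75) and 12.6 (9.99 to 16.2).

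In YFP-negative cells 5 of 10 members were lower with VEGF-C, where 45.3% of 10968 genes were, and 1, Gap43 at 1.58, was higher, where 25.3% were. The lower members were Stmn2 at -5.19, Dpysl3 at -4.50, Tubb3 at -4.43, Nrep at -3.54 and Elavl4 at -1.13. The count of lower members is close to the share of all genes, and the library with VEGF-C is the gene-poor one of this pair. In the treated library Stmn2 had 1, Dpysl3 15, Tubb3 2 and Nrep 12 implied fragments, against 1400, 1829, 795 and 825 in the untreated one. Dcx at 0.79, Stmn1 at 0.32, Elavl3 at 0.18 and Ncam1 at -0.31 were within 2-fold, so the young-neuron marker Dcx and the marker Tubb3 did not move together in these cells. Gap43 was at 0.39 with upper-quartile scaling.

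The response to VEGF-C in YFP-positive cells minus that in YFP-negative cells was at least 2-fold above 0 in 6 members, where 51.7% of 12769 genes were, and below in 2, where 27.4% were. Gap43 was lower with VEGF-C in YFP-positive cells and higher in YFP-negative cells, at least 2-fold each, and Elavl4 the reverse, where 20.4% of genes were opposite in this way. The count of 2 opposite members is close to that share. This difference of responses sets both gene-rich libraries against both gene-poor ones, so it and the number of genes listed cannot be told apart.

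Relatives and partners of the 10 genes were counted in full, and 41 of 44 had at least 1 FPKM in some library. Of these, 18 were higher in both YFP-positive libraries, where 18.7% of 12769 genes were. Another 6 were lower in both, where 17.1% were, a count close to the share of all genes. The same shares apply to the counts of each list below. Tubulins and microtubule proteins had the most, 9 of 14 higher. These were Tuba1a, Tuba1b, Tubb2a, Tubb2b, Tubb5, Tubb6, Map2, Dclk1 and Dclk2, while Tubb4a and Stmn4 were lower in both. Tubb2b, a beta-tubulin of young neurons, measured 180.3 FPKM in treated and 243 FPKM in untreated YFP-positive cells, against 0.224 FPKM in treated and 30.6 FPKM in untreated YFP-negative cells, an order like that of Stmn2. Tubb5, the beta-tubulin of many dividing cells, measured 451 and 404 FPKM in treated and untreated YFP-positive cells, against 53.5 and 75.5 FPKM in YFP-negative cells. Tuba1a, the main alpha-tubulin of the developing brain, was at 1232 and 1248 FPKM against 889.5 and 516 FPKM in the same order. Tubb4a, a beta-tubulin abundant in oligodendrocytes, was lower in both, at 53.2 and 38.1 FPKM in treated and untreated YFP-positive cells, against 404 and 332 FPKM in YFP-negative cells.

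Within the stathmin, collapsin response mediator and Elav-like families the genes did not share a course. Stmn4 measured 55.9 and 13.5 FPKM in treated and untreated YFP-positive cells, against 326 and 234 FPKM in YFP-negative cells, opposite in order to Stmn2. Stmn3 overlapped between the populations, with 165 and 18.4 FPKM in treated and untreated YFP-positive cells, against 113 and 56.8 FPKM in treated and untreated YFP-negative cells. Of the collapsin response mediators besides Dpysl3, 0 of 4 separated the populations, and the most abundant, Dpysl2, was at 205 and 256 FPKM against 285 and 177 FPKM. Elavl2 was highest in YFP-positive cells without VEGF-C at 37.9 FPKM, where Elavl3 and Elavl4 were at 4.33 and 2.59 FPKM, and was at 1.64 FPKM with VEGF-C, against 0.166 and 8.59 FPKM in YFP-negative cells with and without it. Elavl1, the member of the family used by most cell types, was at 26.8 and 29.4 FPKM against 78.6 and 20.9 FPKM.

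**Figure D3:**
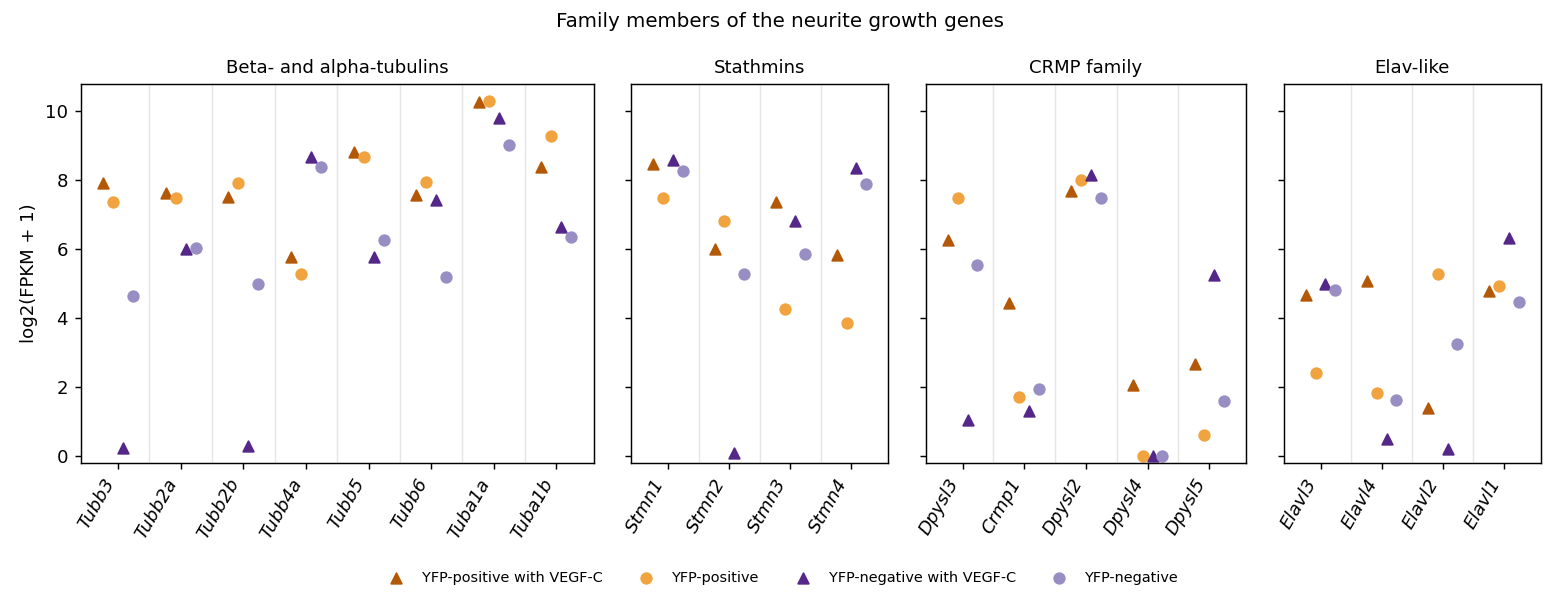
Levels as log2(FPKM + 1) of tubulins, stathmins, collapsin response mediators (CRMP family) and Elav-like genes in the 4 libraries, with the colours and shapes of the legend. Tubb4a and Stmn4 are highest in the YFP-negative libraries, whereas Tubb3 and Stmn2 are highest in the YFP-positive ones.

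Of 4 growth cone membrane proteins, 3 had at least 1 FPKM in some library, and 2 of these were higher in both YFP-positive libraries. Marcks, a substrate of protein kinase C, measured 141 and 267 FPKM in treated and untreated YFP-positive cells, against 72.6 and 37.2 FPKM in YFP-negative cells, and Basp1 measured 46.4 and 109.9 FPKM against 39.5 and 25.5 FPKM. Their order over the libraries was that of Gap43, to which both are functionally related. Marcksl1 did not share it, with 89.9 and 85.9 FPKM in treated and untreated YFP-positive cells, against 148 and 65.7 FPKM in YFP-negative cells. Of 8 adhesion and polysialic acid genes, 1 (Nrcam) was higher in both YFP-positive libraries and 4 were lower, among them L1cam at 1.14 and 0.0827 FPKM against 8.63 and 3.58 FPKM and Nfasc at 1.90 and 0.904 FPKM against 11.2 and 14.2 FPKM. St8sia2 and St8sia4, the enzymes that add polysialic acid to Ncam1, reached at most 2.81 and 1.07 FPKM. Of 8 upstream factors, 6 had at least 1 FPKM in some library, and 3 of these were higher in both YFP-positive libraries and 0 lower. Neurod1, which drives granule neuron differentiation, measured 88.2 and 135 FPKM in treated and untreated YFP-positive cells, against 9.03 and 0.550 FPKM in YFP-negative cells. Sox11 was at 77.7 and 89.3 FPKM against 5.13 and 18.4 FPKM, and Prox1, the identity factor of granule neurons, at 9.75 and 6.58 FPKM against 0.0663 and 4.83 FPKM. Sox4 overlapped, at 25.2 and 52.8 FPKM against 46.4 and 12.3 FPKM. Tbr1 was highest in treated YFP-negative cells, at 0.488 and 0.148 FPKM against 18.4 and 0.211 FPKM, and Bcl11b in untreated ones, at 1.11 FPKM. Neurod2 was listed at 0 in all 4 libraries.

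The mean profile of the 10 members over the 4 libraries, each gene centred on its own mean, was compared with 3931 other genes that averaged 20 FPKM or more. The nearest by Euclidean distance were Pum2 at 0.36, Oaz1-ps at 0.38, Txndc17 at 0.40, Polr1d at 0.40 and Mrpl24 at 0.47. The members themselves lay farther away, from Ncam1 at 1.11 to Elavl3 at 3.88. Between them, 137 other genes lay nearer to the mean profile than Ncam1 did and 2800 nearer than Elavl3.

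Markers of astrocytes, oligodendrocytes and microglia also differed between the populations. Summed FPKM of 10 astrocyte markers was 1107 in treated and 1269 in untreated YFP-positive cells, against 62.0 in treated and 62.8 in untreated YFP-negative cells, with 8 of 10 higher in both, 1 (S100b) lower, and Aldh1l1 and Gjb6 listed at 0 in both YFP-negative libraries. Summed FPKM of 8 oligodendrocyte markers was 469 and 355 in treated and untreated YFP-positive cells, against 8836 and 7362 in YFP-negative cells, with 8 of 8 lower. For 10 microglia markers the sums were 13.9 and 2.68 against 724 and 304. Of these 7 were lower in both YFP-positive libraries, and P2ry12 was listed at 0 in all 4 libraries. For 9 neural stem cell markers the sums were 1746 and 3139 against 924 and 312, with 5 higher in both YFP-positive libraries and 1, Nes, lower. Vim alone gave 1215 and 2333 FPKM of these sums against 691 and 184 FPKM. For 6 oligodendrocyte precursor markers the sums were 30.9 and 306 against 560 and 171, which overlap, and Pdgfra was listed at 0 in all 4 libraries. The lists of endothelial, mural, and interneuron or other migrating neuroblast markers each summed to at most 39.1 FPKM in any library. The last list held Dlx1, Dlx2, Dlx5, Dlx6, Sp8, Gad1 and Gad2, and none of the 10 members.

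The mature neuron markers did not follow the neurite growth genes. Their 14 genes summed to 102 and 34.6 FPKM in treated and untreated YFP-positive cells, against 90.2 and 77.0 FPKM in YFP-negative cells, and 3 were higher and 3 lower in both YFP-positive libraries. Those higher were Rbfox3, Map2 and Camk2a. Rbfox3, a defining nuclear marker of neurons, measured 5.46 and 0.397 FPKM in treated and untreated YFP-positive cells, against 0.231 and 0.150 FPKM in YFP-negative cells. Those lower were the synaptic genes Snap25, with 20.4 and 6.28 FPKM against 39.9 and 21.1 FPKM, and Syn1, with 2.31 and 0.0469 FPKM against 22.6 and 6.44 FPKM, and the neurofilament gene Nefm, with 8.21 and 16.1 FPKM against 22.6 and 26.7 FPKM. Slc17a7, the glutamate transporter of mature granule neurons, had 1 implied fragment in treated YFP-positive cells and was listed at 0 in the other 3 libraries. For the YFP-negative libraries that the labels call neurons, the list was thus mixed, with Slc17a7, Nefh and Calb1 listed at 0 in both. Untreated YFP-positive cells listed these genes at 0 as well. Summed oligodendrocyte markers exceeded summed mature neuron markers in every library. The oligodendrocyte sums were 8836 and 7362 FPKM in treated and untreated YFP-negative cells, and 469 and 355 FPKM in YFP-positive cells. In such bulk samples fewer cells of a type and less RNA per cell cannot be told apart, and the part of these other cell types in the values of the 10 genes was not tested.

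**Figure D4:**
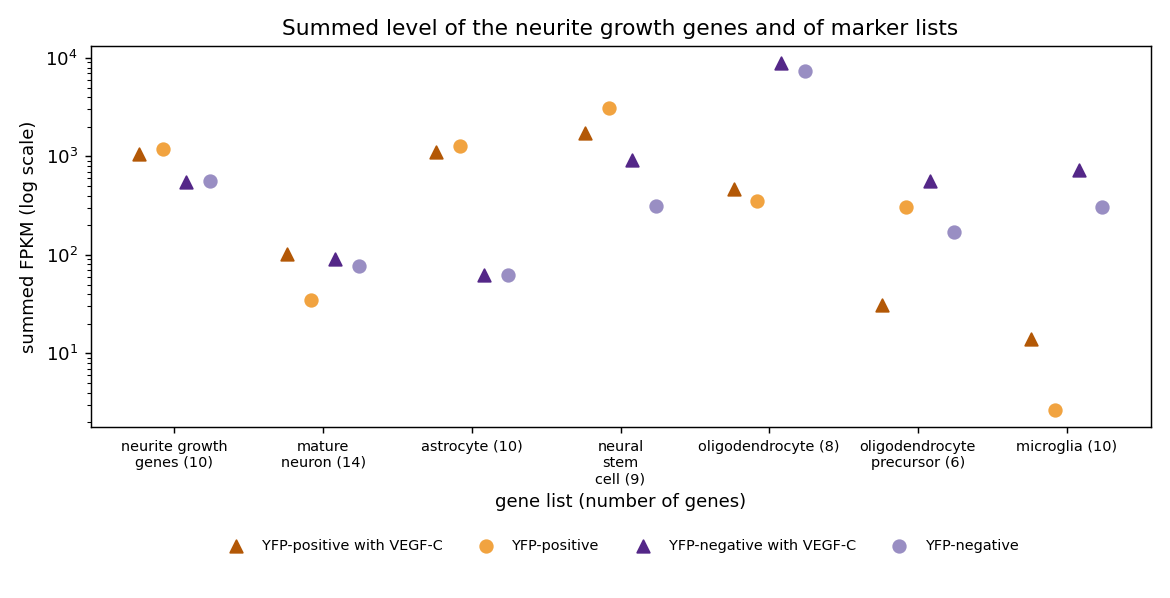
Summed FPKM on a log scale of the 10 neurite growth genes and of 6 marker lists in the 4 libraries, with the number of genes in brackets. The neurite growth genes sum to 1058 and 1197 FPKM in treated and untreated YFP-positive cells, against 552 and 557 FPKM in YFP-negative cells, and the astrocyte and oligodendrocyte sums differ between the populations in opposite directions.

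The deposited tables also gave a readout that the choice of genes did not use. The normalized count divided by FPKM grows with the length of the transcripts to which the authors' software assigned the fragments, so it shifts where the mix of long and short transcripts shifts. Quotients were first divided by a constant for each library, set so that the median gene detected in every library stood at its mean. For Ncam1, which has 6 coding transcripts of up to 6564 bases in GENCODE M21, this quotient was 91.4 in treated and 92.0 in untreated YFP-positive cells, against 75.8 in treated and 88.7 in untreated YFP-negative cells. The highest was 21.4% above the lowest, a spread reached by 2.99% of 5124 genes with at least 10 implied fragments in each library, whose median spread was 0.254%. Dpysl3 had a spread of 3.47% and Nrep of 2.05%, with 15 and 12 fragments in the lowest library. Dcx, Stmn1, Gap43 and Elavl3 stayed within 0.923%. Which Ncam1 transcripts account for the lower quotient cannot be read from tables with 1 value per gene.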

How the data were processed

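Per the labels' protocols, SMARTer Ultra Low libraries were sequenced as paired reads of 75 bp. Per the submitters' processing notes, the tools were SAMtools 0.1.18, Bowtie2 2.1.0, TopHat2 2.0.9 and Cufflinks 2.1.1, whose Cuffdiff estimated expression on mm10. Reads were mapped as unstranded, per the labels. Which annotation release was used is not stated there. The authors deposited FPKM and, per the file headers, normalized counts, treated here as a deposited signal because the values are not whole numbers.

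Of 23361 rows, 27 with symbols turned into dates (0.251% to 0.317% of normalized counts) were left out. In each library 99.0% to 99.6% of the values under 2000 steps were whole multiples of 1 step (tolerance 0.05 steps), and division by it gave implied fragments. Intervals are exact Poisson, or exact binomial for ratios, at 95%. They cover the counting error of fragments only. Amplified fragments are not independent molecules, so the error from sampling molecules may be larger.

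Differences were log2((FPKM + 1) / (FPKM + 1)) for genes of at least 1 FPKM in either library, called at 2-fold. With 1 library per group no test was run. Alternatives were pseudocounts of 0.1 and 5, no filter, re-centring on the median gene, upper-quartile scaling, fragments scaled to library total and leaving out genes listed at 0. The computation was tested on simulated data. The named genes are the 10 members, listed relatives at 20 FPKM or more or of a member's family, and the 5 genes nearest in profile. Some relatives that meet this rule, such as Map1b, Mapt and Dpysl5, were counted but their levels are not given. Other relatives named for their level, such as Rbfox3, and markers named singly were chosen after their values were seen. The members and lists were chosen with earlier results of these data known. Positions are from GENCODE M21 and upstream sequences from RefSeq, both on GRCm38. Python 3.11.15, pandas 2.3.3 and scipy 1.17.1 were used.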

Additional observations from a re-analysis of the deposited data

Results flagged for a closer look

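In 4 members the populations had VEGF-C differences of opposite sign, each from 1 library per group, and the difference between the responses was not tested. The share of all genes with opposite signs was not counted. The medians of all genes tested were themselves of opposite sign, 0.59 in YFP-positive and -0.54 in YFP-negative cells. Only Gap43 and Elavl4 were opposite by at least 2-fold each, where 20.4% of 12769 genes were. That is 2 of 10 members, close to the share of all genes. With upper-quartile scaling Dcx was lower with VEGF-C in both populations. The contrast sets both gene-rich libraries against both gene-poor ones, so it and the number of genes listed cannot be told apart. The response in YFP-positive cells minus that in YFP-negative cells was 4.97 (log2) for Tubb3, from 0.54 and -4.43, and 4.36 for Elavl4, from 3.23 and -1.13. It was -2.91 for Gap43, from -1.33 and 1.58, and -2.45 for Dcx, from -1.66 and 0.79. Tubb3 and Elavl4 had 2 and 12 implied fragments in YFP-negative cells with VEGF-C, whereas Gap43 and Dcx had 596 and 1396 there.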

How the results depend on the processing

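Of 91 counts of members under an alternative, 74 were within 1.5 times the reported count. Shares of all genes under the alternatives are not given, so these counts cannot be set against them. With VEGF-C, the count of members lower in YFP-positive cells, 1 as reported, was 0 with a pseudocount of 5, upper-quartile scaling or fragment share (implied fragments scaled to the library total), and 2 after re-centring. Without VEGF-C, upper-quartile scaling gave 2 higher and 2 lower, and fragment share 4 higher and 2 lower, in place of 7 and 1. For VEGF-C in YFP-positive cells, upper-quartile scaling gave 4 higher and 0 lower, fragment share 4 higher and 1 lower, and re-centring 6 lower, in place of 2 and 3. For VEGF-C in YFP-negative cells, the count of higher members, 1 as reported, was 0 with upper-quartile scaling and 2 after re-centring. The count of members below in both YFP-positive libraries, 1 as reported, was 0 with upper-quartile scaling and with fragment share, the last an alternative chosen after seeing the data. Upper-quartile values were 19.5 and 46.3 FPKM in YFP-positive cells with and without VEGF-C, against 47.9 and 20.4 FPKM in YFP-negative cells, so this scaling lowers the gene-poor libraries relative to the gene-rich ones. Among 420 single-gene values under the alternatives, 368 kept their direction and their side of 2-fold, 0 past 2-fold changed sign, 17 within 2-fold changed sign, 21 dropped below 2-fold and 14 newly passed it. No paired analysis was possible because each group has 1 library and the labels carry no replicate numbers, and for the same reason no replicate could be left out.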
